A study of Triticum aestivum with 8 samples.

Results

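The 109 identifiers beginning with ENSRNA that open the expression tables of developing grain of bread wheat (Triticum aestivum), cultivar AK58 (AiKang58), were followed through grain development. They were chosen by their place: they stand before the first 5 consecutive rows with TraesCS identifiers, the names of the annotated wheat genes. Their numbers run from ENSRNA050013832 to ENSRNA050013940 with 0 missing, and they make up 109 of the 189 identifiers complete in all 6 tables used here and of the 289 in the 8 tables together. In what follows a member is named by its full identifier, and a level is in TPM (transcripts per 1000000), a unit in which the reads of a row are divided by length and the rows of a library together make 1000000.

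The study sampled AK58 grain at 5, 9, 15 and 20 days after fertilization (DAP5, DAP9, DAP15 and DAP20), with 2 replicates at each stage. All plants were of the same cultivar and carried no treatment or transgene that the labels name, so stage is the only group. DAP5 and DAP9 are labelled endosperm, taken by removing the embryo, whereas DAP15 and DAP20 are labelled seed, so the stage and the tissue changed together between DAP9 and DAP20 and cannot be told apart. The rows of the DAP15 tables used here held 0 of the identifiers, which were therefore followed over 6 libraries of DAP5, DAP9 and DAP20. The study calls its replicates biological, but the labels do not say whether they came from separate plants, and the p-values measure the spread between these libraries.

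ENSRNA is the prefix that Ensembl-style annotations give to genes of noncoding RNA, which make no protein. This class holds transfer RNAs, the adaptors that carry amino acids to the ribosome, ribosomal RNAs, the small nuclear RNAs of the splicing machinery, the small nucleolar RNAs that guide modification of ribosomal RNA, and precursors of microRNAs. Most of them are short, fold into stable structures and carry no poly(A) tail, the feature by which kits for mRNA capture their targets, and the libraries were made with such a kit (Illumina TruSeq mRNA Stranded). The reference gene table at hand held 0 of the 109 identifiers, so no kind, length, position or role is given to any of them. Because such rows can be short, and TPM divides by length, a TPM of a few units need not come from many reads, and the depth behind a value is unknown.

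The presence of endosperm was checked with the gliadins, storage proteins of the starchy endosperm. Whole seed holds endosperm too, so these genes cannot tell the 2 labels apart. No markers of embryo, pericarp or aleurone were used. The gamma-gliadin gene TraesCS1A02G007400 had a TPM of 1369 and 90.0 in the 2 replicates of DAP5, 15570 and 18385 in those of DAP9, 6580 and 6412 in those of DAP15 and 3630 and 7455 in those of DAP20. It was detected in all 8 libraries, and the DAP5 replicates were 15.2-fold apart. The gliadin genes TraesCS1A02G007300 and TraesCS1A02G005387 were also higher in replicate 1 of DAP5, by 7.05-fold and 10.3-fold. At DAP20 the 3 genes were higher in replicate 2 by 1.39-fold to 2.05-fold. The gliadin gaps thus ran in the same direction as the ENSRNA gaps described next, and their part in these was not tested.

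Of the 109 ENSRNA rows, 37 were at 0 in all 6 libraries, 54 were above 0 in all 6, and 18 were above 0 in 1 to 5 libraries. By the mean TPM over the 6 libraries, 20 rows lay under 1, 41 between 1 and 10 and 11 between 10 and 100. No row had a mean above 100. The rows above 0 in a library numbered 66 and 61 at DAP5, 59 and 60 at DAP9 and 65 and 68 at DAP20. The number of detected rows therefore differed little between libraries, in contrast to their levels.

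Whether a row was detected went with its identifier number. All 62 rows from ENSRNA050013832 to ENSRNA050013893 were above 0 in at least 1 library, and 54 of them were above 0 in all 6. Of the 47 rows from ENSRNA050013894 to ENSRNA050013940, 37 were at 0 throughout, 10 were above 0 somewhere and 0 were above 0 in all 6. The highest value was 173.1 TPM in the lower-numbered block and 2.947 TPM in the higher-numbered block, the latter at ENSRNA050013939 in DAP5 replicate 1. This boundary was set after the values were seen, and it is given as a description with no test. The rows do not stand in the tables by number: 0 of 108 neighbouring pairs were consecutive, and 36 of the 37 rows at 0 were followed by a row that was not at 0 throughout.

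**Figure D1:**
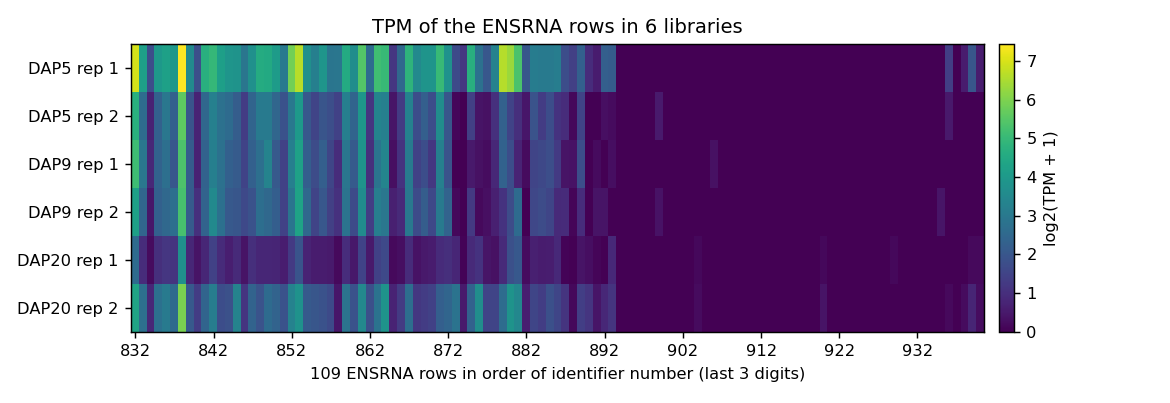
The level of each of the 109 ENSRNA rows in the 6 libraries, as log2(TPM + 1) in colour, with the rows ordered by identifier number along the x axis and the libraries along the y axis. All 62 rows of the lower-numbered block were above 0 somewhere, whereas 37 of the 47 rows of the higher-numbered block were at 0 in every library drawn.

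The summed TPM of the 109 rows was 1347 and 288.6 in the 2 replicates of DAP5, 274.8 and 248.4 at DAP9 and 64.3 and 320.7 at DAP20. These sums correspond to 0.135% and 0.0289% of all TPM at DAP5, 0.0275% and 0.0248% at DAP9 and 0.00643% and 0.0321% at DAP20. The lowest and the highest sum belonged to DAP20 replicate 1 and DAP5 replicate 1, while the other 4 libraries lay between 248.4 and 320.7 TPM. Stage means were 818 ± 748 at DAP5, 262 ± 18.7 at DAP9 and 193 ± 181 at DAP20 (SD, n = 2 each). The DAP5 and DAP20 sums overlapped, since DAP20 replicate 2 exceeded DAP5 replicate 2. With 2 libraries against 2, the smallest two-sided p of an exact permutation test is 0.333, so the sums were not tested. In bulk samples, fewer cells that hold these RNAs and less of the RNA per cell cannot be told apart.

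**Figure D2:**
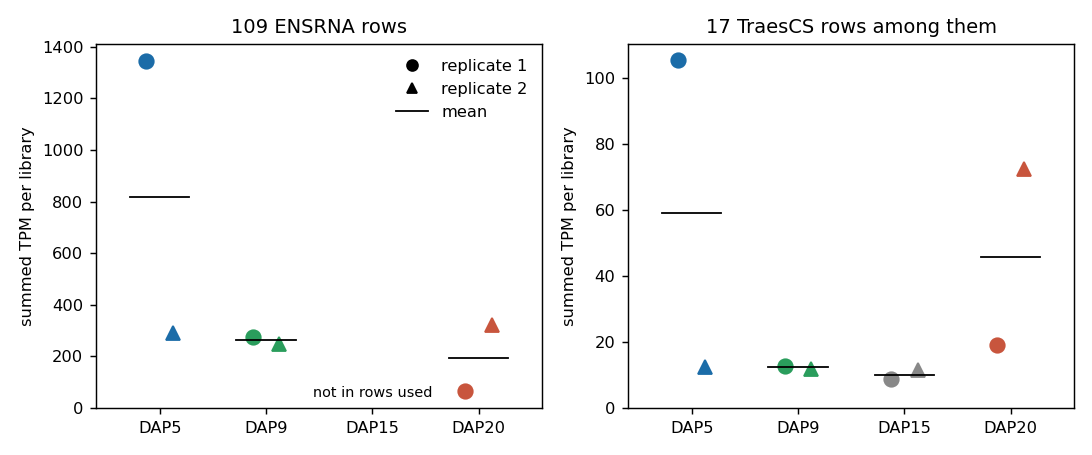
Summed TPM of the 109 ENSRNA rows and of the 17 TraesCS rows standing among them, for each library by stage, on linear axes from 0, where circles are replicate 1, triangles replicate 2 and bars the stage means, and where DAP15 has no ENSRNA value. The ENSRNA sums of DAP9 (274.8 and 248.4) lie close together, whereas those of DAP5 (1347 and 288.6) and DAP20 (64.3 and 320.7) are 4.67-fold and 4.99-fold apart.

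The same separation appeared in the distribution of single rows. A TPM of at least 10 was reached by 35 rows in DAP5 replicate 1, against 5 in replicate 2, 4 and 5 at DAP9 and 1 and 7 at DAP20. A TPM of at least 1 was reached by 62, 48, 44, 45, 15 and 54 rows in the same order. The median TPM of the 54 rows detected everywhere was 13.5 and 3.03 at DAP5, 3.15 and 3.01 at DAP9 and 0.746 and 3.28 at DAP20. Hence 4 libraries from 3 stages had medians between 3.01 and 3.28, and the other 2 stood apart in opposite directions.

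Between the replicates of DAP5, all 60 rows above 0 in both libraries were higher in replicate 1. The median ratio was 3.75-fold, with a range from 2.10-fold to 43.0-fold. A further 6 rows were above 0 only in replicate 1, and ENSRNA050013899 was the only row detected in replicate 2 alone (0.439 TPM). Between the replicates of DAP20, all 64 rows above 0 in both were higher in replicate 2. The median ratio was 4.90-fold and the range 1.27-fold to 20.4-fold. In addition, 4 rows were above 0 only in replicate 2 and ENSRNA050013929 only in replicate 1 (0.122 TPM). The DAP9 replicates differed less: 33 rows were higher in replicate 1 and 23 in replicate 2, with a median log2 ratio of 0.05, and 9 of 56 rows differed by more than 2-fold.

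The TraesCS rows were measured in the same way for comparison. The 17 TraesCS rows standing among the ENSRNA rows (TraesCS1A02G000100 to TraesCS1A02G001700) showed the same direction, with 13 of 13 higher in DAP5 replicate 1 (median 8.14-fold) and 17 of 17 higher in DAP20 replicate 2 (median 5.03-fold). The TraesCS rows outside the run had 15 higher and 15 lower in DAP5 replicate 1, with a median log2 ratio of -0.01, although 11 of those 30 differed by more than 2-fold. At DAP20 16 of them were higher in replicate 1 and 13 in replicate 2 (median log2 ratio 0.02). When libraries were scaled by size factors from the TraesCS rows outside the run, the median log2 ratio of the ENSRNA rows was 2.26 at DAP5 and -2.37 at DAP20, against 1.91 and -2.29 without scaling. The gaps between replicates were thus as large after that scaling.

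**Figure D3:**
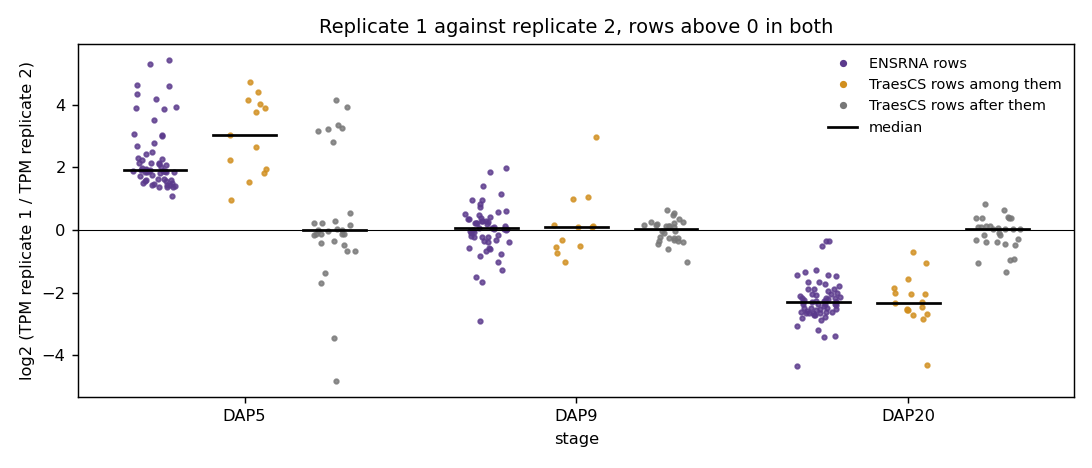
Log2 ratio of replicate 1 to replicate 2 for each row above 0 in both libraries of a stage, for the ENSRNA rows, the TraesCS rows among them and the TraesCS rows outside the run, where bars mark medians. Every ENSRNA row lies above 0 at DAP5 (60 of 60) and below 0 at DAP20 (64 of 64), whereas the DAP9 rows spread on both sides (33 and 23).

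These gaps set where single rows peaked. Of the 72 rows above 0 somewhere, 63 were highest in DAP5 replicate 1, 5 in DAP20 replicate 2 and 1 in each of the other 4 libraries. By stage mean 64 were highest at DAP5, 6 at DAP20 and 2 at DAP9. Of the 54 rows detected everywhere, 49 were lowest in DAP20 replicate 1. The 5 exceptions were ENSRNA050013875, ENSRNA050013876, ENSRNA050013877, ENSRNA050013880 and ENSRNA050013881, whose numbers lie close together.

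The most abundant row in every library was ENSRNA050013838. Its TPM was 173.1 and 47.7 at DAP5, 40.6 and 37.5 at DAP9 and 12.2 and 60.4 at DAP20. The DAP20 pair enclosed both DAP9 values, and DAP5 replicate 1 stood above all others. It held from 12.9% to 19.0% of the summed TPM of the 109 rows, and the 5 highest rows of each library held from 37.1% to 42.5%. The 5 highest rows were not the same in every library: 3 rows (ENSRNA050013838, ENSRNA050013832 and ENSRNA050013853) were among them in all 6, and 10 different rows were among them in at least 1.

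ENSRNA050013832, the row with the lowest number and the second highest mean, had a TPM of 124.3 and 25.5 at DAP5, 34.2 and 17.7 at DAP9 and 5.06 and 19.4 at DAP20. ENSRNA050013853 had 98.3 and 15.2 TPM at DAP5, 18.3 and 19.0 at DAP9 and 2.85 and 12.8 at DAP20. In ENSRNA050013853 both DAP20 values lay below both DAP9 values, whereas in ENSRNA050013832 the DAP9 and DAP20 pairs overlapped. ENSRNA050013861 had 43.1 and 14.4 TPM in the DAP5 libraries, 13.2 and 11.2 in those of DAP9 and 1.84 and 10.3 in those of DAP20, so its stages did not overlap and lay in the order DAP5, DAP9, DAP20. ENSRNA050013852 (56.8 and 6.97, 8.22 and 6.47, 1.41 and 8.93 TPM at the same stages) and ENSRNA050013864 (31.5 and 8.51, 9.29 and 6.70, 2.10 and 13.2 TPM) overlapped between all pairs of stages.

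**Figure D4:**
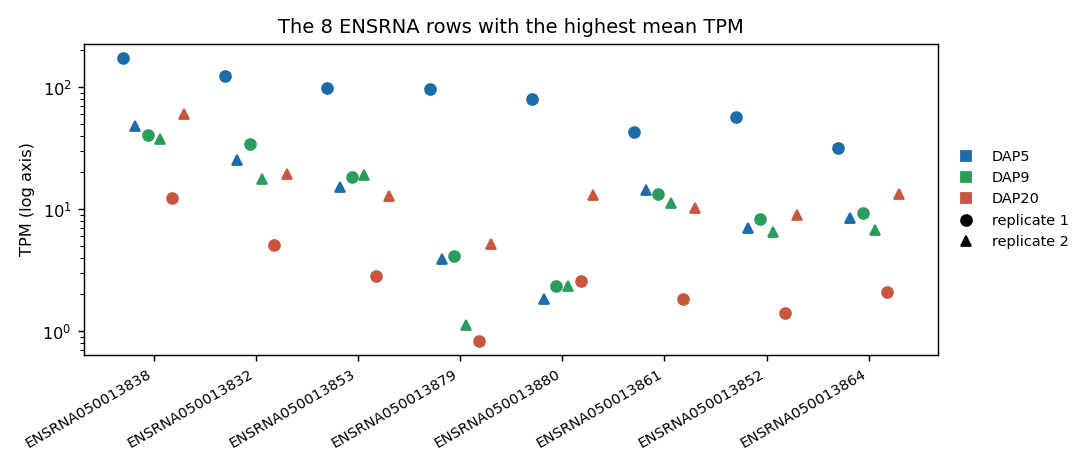
TPM of the 8 ENSRNA rows of highest mean in each of the 6 libraries, on a log axis, with the rows along the x axis, colours for stages, circles for replicate 1 and triangles for replicate 2. DAP5 replicate 1 is the highest point of each row, and in ENSRNA050013838 it stands at 173.1 TPM against 47.7 in replicate 2.

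Among the 54 rows detected everywhere, a few of close numbers varied most apart from the shift that these rows shared. To describe this, each level was set against the median of the 54 rows detected everywhere in the same library, on the log2 scale, which removes that shift. The SD of this relative level over the 6 libraries had a median of 0.39 and ranged from 0.19 (ENSRNA050013839) to 2.51 (ENSRNA050013876). It exceeded 0.5 in 19 rows and 1 in 6 rows, namely ENSRNA050013875, ENSRNA050013876, ENSRNA050013877, ENSRNA050013879, ENSRNA050013880 and ENSRNA050013881. ENSRNA050013878, numbered between them, had an SD of 0.69 and was highest in DAP5 replicate 1 and lowest in DAP20 replicate 1 like most rows. The 6 rows were picked after their values were seen and are described without a test. Rows with a value of 0, such as ENSRNA050013873 and ENSRNA050013893, have no such relative level and could not enter. The lowest values of ENSRNA050013875, ENSRNA050013876 and ENSRNA050013877 were 0.426, 0.143 and 0.195 TPM, all at DAP9. The lowest values above 0 among all ENSRNA rows there were 0.152 and 0.0717 TPM, so part of this spread rests on values near the floor.

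ENSRNA050013879 had a TPM of 97.4 in DAP5 replicate 1, against 3.93 in replicate 2, 4.09 and 1.13 at DAP9 and 0.833 and 5.18 at DAP20. Its high value came from 1 library, and the other 5 lay between 0.833 and 5.18 TPM. ENSRNA050013880 had 79.5 and 1.85 TPM at DAP5, the 43.0-fold gap that was the largest among all rows, 2.36 and 2.34 at DAP9 and 2.55 and 13.1 at DAP20. Both DAP20 libraries exceeded both DAP9 libraries, by 0.192 TPM at the closest. ENSRNA050013881 had 39.7 and 1.02 TPM at DAP5, 0.682 and 5.09 at DAP9 and 3.11 and 9.88 at DAP20, with overlap between all stages. Its DAP9 replicates were 7.46-fold apart, although the DAP9 sums differed only 1.11-fold.

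ENSRNA050013876 had 5.79 and 0.320 TPM at DAP5, 0.253 and 0.143 at DAP9 and 1.14 and 11.8 at DAP20. It was 1 of the 5 rows that peaked in DAP20 replicate 2. Relative to the median row of the same library its log2 level was -1.22 and -3.24 at DAP5, -3.64 and -4.40 at DAP9 and 0.61 and 1.85 at DAP20. It therefore lay below the median row at DAP5 and DAP9 and above it in both DAP20 libraries. The relative log2 level of ENSRNA050013880 was 2.56 and -0.71 at DAP5, -0.42 and -0.36 at DAP9 and 1.77 and 2.00 at DAP20, so that DAP5 replicate 1 sided with DAP20 rather than with its own replicate.

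**Figure D5:**
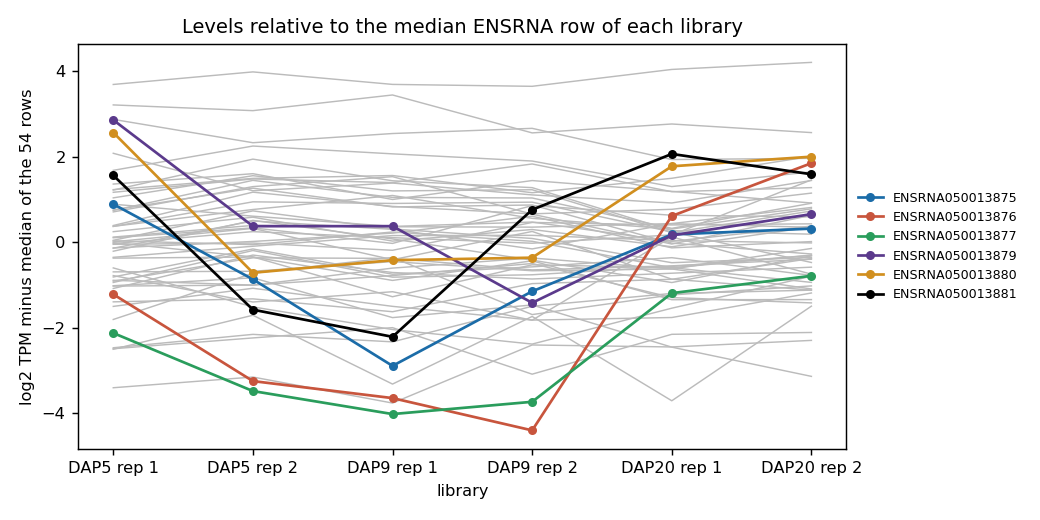
Log2 level of each of the 54 rows detected everywhere, relative to the median of these rows in the same library, across the 6 libraries, with the 6 rows of widest spread in colour and lines joining the values of a row only as a guide to the eye. ENSRNA050013876 runs from -4.40 in DAP9 replicate 2 to 1.85 in DAP20 replicate 2, while the 48 rows in grey have an SD of at most 1.

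The stretch around these numbers had the widest gap between the DAP5 replicates among windows of 10 numbers up to ENSRNA050013891. The 10 rows from ENSRNA050013872 to ENSRNA050013881 summed to 275.8 and 13.2 TPM at DAP5, a 20.9-fold gap, to 11.5 and 15.1 at DAP9 and to 10.8 and 58.9 at DAP20. In the other 5 windows the DAP5 gap was between 3.19-fold and 4.58-fold. At DAP20 all 6 windows had gaps between 3.99-fold and 5.43-fold, so the stretch stood apart between the DAP5 replicates and not between the DAP20 replicates. The window holds the 6 rows picked above for their spread over the same libraries, so its gap is not separate support for them.

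The 3 rows with a mean of at least 1 TPM and the smallest SD of log2(TPM + 1), a scale that shrinks the spread of low rows, were ENSRNA050013840, ENSRNA050013889 and ENSRNA050013862. ENSRNA050013840 had 2.44 and 0.681 TPM at DAP5, 0.629 and 1.07 at DAP9 and 0.326 and 1.51 at DAP20. ENSRNA050013889 had 3.85 and 1.83, 2.47 and 0.932, and 0.318 and 1.62 TPM, with the smallest DAP5 gap of all rows. ENSRNA050013862 had 5.12 and 1.21, 1.02 and 1.54, and 0.409 and 2.53 TPM at the same stages. All 3 still had their highest value in DAP5 replicate 1 and their lowest in DAP20 replicate 1. On the log2(TPM + 1) scale ENSRNA050013845 had one of the widest DAP20 gaps, at 0.840 and 9.01 TPM, against 13.2 and 3.59 at DAP5 and 3.40 and 2.96 at DAP9.

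Over single rows, separation between stages was counted where both libraries of a stage lay above or below both of another. From DAP5 to DAP9, 29 of the 72 rows above 0 somewhere lay lower without overlap (40.3%), where 43.3% of all 127 such identifiers in the tables did, and 0 lay higher (6.3% of all identifiers). From DAP9 to DAP20, 17 lay lower (23.6%, against 27.6% of all) and 12 lay higher (16.7%, against 20.5%). From DAP5 to DAP20, 26 lay lower (36.1%, against 37.8%) and 2 lay higher (2.8%, against 11.8%). The ENSRNA rows are 72 of these 127 identifiers, so nearness to the share of all is partly built in. The 38 TraesCS rows outside the run lay lower in 55.3%, 47.4% and 55.3% in the same order, and higher in 21.1%, 13.2% and 23.7%. The 17 inside the run lay lower in 29.4%, 0% and 5.88%, and higher in 0%, 52.9% and 23.5%. The downward shares of the ENSRNA rows lay between those of these 2 sets and are not read as a result about the ENSRNA rows.

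Of the 12 rows higher at DAP20 than at DAP9 without overlap, ENSRNA050013880 was the only one among the 8 most abundant rows. ENSRNA050013873 had 0 and 0.113 TPM at DAP9 and 0.730 and 6.07 at DAP20, and ENSRNA050013890 was at 0 in both DAP9 libraries and at 0.220 and 1.23 TPM at DAP20. The other 10 were ENSRNA050013874, ENSRNA050013876, ENSRNA050013877, ENSRNA050013880, ENSRNA050013882, ENSRNA050013893, ENSRNA050013904, ENSRNA050013920, ENSRNA050013939 and ENSRNA050013940. Both DAP20 libraries exceeded all 4 other libraries only in ENSRNA050013904 (0.122 and 0.155 TPM) and ENSRNA050013920 (0.122 and 0.310 TPM), which were at 0 elsewhere. Both DAP5 libraries exceeded the other 4 in 18 rows. The rows above all 4 other libraries were not counted over all identifiers, so these counts are not a result about the ENSRNA rows.

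Differences between stages were then tested with limma on log2(TPM + 1) over the 91 identifiers whose TPM reached 1 in 2 or more libraries. A row was called where its p, adjusted by Benjamini-Hochberg over these 91, was under 0.01 and its log2 fold change was over 1 in size. The 54 ENSRNA rows among them left 55 untested, the 37 at 0 throughout and 18 low ones. In the comparisons DAP9 against DAP5, DAP20 against DAP9 and DAP20 against DAP5, 0 of the 54 rows were called, and 0% of all 91 identifiers were called. At an unadjusted p under 0.05 the ENSRNA rows numbered 0, 0 and 7, and all identifiers 17, 5 and 27. Only limma was run, because TPM keep no read counts.

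The median log2 fold change of the 54 rows was -0.98 from DAP5 to DAP9, beside -0.95 for all 91 identifiers. Negative estimates numbered 54 of 54, and 84 of 91 over all identifiers. The median was -0.50 from DAP9 to DAP20 (all identifiers -0.46), with 43 negative and 11 positive (all identifiers 69 and 22). From DAP5 to DAP20 it was -1.42 (all identifiers -1.28), with 52 negative and 2 positive (all identifiers 75 and 16). The 54 rows are most of the 91 identifiers, so the 2 medians are not separate. In the same order the 13 TraesCS rows inside the run had medians of -0.88, 0.78 and -0.28. The 24 TraesCS rows outside the run had -0.69, -0.62 and -1.29. From DAP9 to DAP20, 9 of the 13 were positive and 22 of the 24 were negative. The rows share the same libraries, so their signs are not separate observations. Leaving out single libraries moved the medians of the ENSRNA rows. Without DAP5 replicate 1 the median from DAP5 to DAP9 was -0.14, and without DAP20 replicate 1 the median from DAP9 to DAP20 was 0.17, the opposite direction. With size factors from the 26 TraesCS rows outside the run, which use no ENSRNA row, the median of all 91 identifiers moved from -0.95 to -0.22 for DAP9 against DAP5 and from -1.28 to -0.10 for DAP20 against DAP5, and that of the ENSRNA rows to -0.22 and -0.26. These factors were 1.65 and 2.10 at DAP5, 0.973 and 0.912 at DAP9 and 0.602 and 0.573 at DAP20. The 26 rows as a set thus lay lower at later stages themselves, and scaling by them takes their own fall out of every row. Whether that fall is one of scale or of these genes was not tested.

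For ENSRNA050013838 the fitted log2 fold change was -1.20 from DAP5 to DAP9 (SE 0.98, limma adjusted p = 0.471), -0.49 from DAP9 to DAP20 (adjusted p = 0.842) and -1.69 from DAP5 to DAP20 (adjusted p = 0.231). With size factors from the TraesCS rows outside the run they were -0.24, 0.17 and -0.073, and without DAP20 replicate 1 the second was 0.62, so no direction is given for this row from DAP9 to DAP20. Without DAP5 replicate 1 the first was -0.28 and the third -0.77. ENSRNA050013879 had -2.74 from DAP5 to DAP9 (SE 1.61, limma adjusted p = 0.471), its DAP5 mean being 50.7 ± 66.1 TPM (SD, n = 2). This was -0.58 without DAP5 replicate 1 and -4.90 without DAP5 replicate 2. From DAP9 to DAP20, ENSRNA050013876 had 2.13 (SE 1.20, limma adjusted p = 0.633) and ENSRNA050013880 had 1.08 (SE 1.73, limma adjusted p = 0.842). Without DAP20 replicate 1 these were 3.42 and 2.08, and without DAP20 replicate 2 they were 0.84 and 0.084. None of these differences exceeded the spread between replicates by this test.

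The study sorted changed genes into lists by stage, using these libraries together with leaf. The lists that could be read in full (DAP5, DAP9, DAP15, DAP20 and all stages) held 5 of the 109 rows, and the others (leaf, DAP5 with DAP9 and DAP15 with DAP20) were not used here. ENSRNA050013879 stood in the list of DAP5, and ENSRNA050013836, ENSRNA050013873, ENSRNA050013876 and ENSRNA050013880 stood in that of DAP20, while the lists of DAP9, DAP15 and all stages held 0. The lists are not independent evidence of direction, since these libraries entered them. ENSRNA050013836 had 17.6 and 6.81 TPM at DAP5, 5.63 and 4.76 at DAP9 and 1.27 and 7.28 at DAP20, so its highest value here was at DAP5 and its DAP20 pair enclosed the DAP9 pair. Of the 17 TraesCS rows among them, 9 stood in the DAP20 list.

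Across the 54 rows detected everywhere, the Pearson correlation of log2 TPM, given as a description over rows that share libraries, was 0.80 between the DAP5 replicates, 0.89 between the DAP9 replicates and 0.93 between the DAP20 replicates. DAP5 replicate 2 stood closest to DAP9 replicate 1 (0.96) and DAP9 replicate 2 (0.92). Its correlation with the DAP20 libraries was 0.68 and 0.63. For DAP5 replicate 1 the correlation was 0.86 and 0.81 with the DAP20 libraries and 0.77 and 0.78 with DAP9. By Spearman's rho, DAP5 replicate 1 stood at 0.80 with its replicate, 0.78 and 0.83 with DAP9 and 0.83 and 0.80 with DAP20, so it was not closest to 1 stage by both measures, whereas DAP5 replicate 2 was closest to DAP9 by both (rho 0.96 and 0.90).

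Among the 10 detected rows of the higher-numbered block, values were low and scattered. The block summed to 5.54 and 0.862 TPM at DAP5, 0.270 and 0.618 at DAP9 and 0.649 and 1.69 at DAP20. ENSRNA050013939 had 2.95 TPM in DAP5 replicate 1, 0.142 and 0.723 at DAP20 and 0 in the other 3 libraries. ENSRNA050013899 was detected in 1 replicate each of DAP5 (0.439 TPM) and DAP9 (0.275 TPM). ENSRNA050013906, ENSRNA050013929 and ENSRNA050013935 were above 0 in a single library each, at 0.270 TPM in DAP9 replicate 1, 0.122 TPM in DAP20 replicate 1 and 0.343 TPM in DAP9 replicate 2.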

How the data were processed

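For each library the authors deposited a table of TPM values. Their methods name fastp, hisat2 and TPMCalculator, whereas the submitters' processing notes name Trimmomatic, HISAT2 2.0.5 and StringTie 1.3.3b. The genome build, the annotation and the treatment of reads that map to several places are not given in the sources used here. The rows used here are those at the start of each table, and the last line, which breaks off, was left out. TPM keep no read counts, so depth and counting error are unknown and DESeq2, which the authors used, was not run.

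The 3 stages entered one limma model (version 3.58.1, R 4.3.3, moderated with a trend) of log2(TPM + 1), restricted to rows whose TPM reached 1 in 2 or more of the 6 libraries. Fold changes on this scale understate those of low rows. The steps were tested on simulated data with independent noise in every row and no shift shared by the rows of a library. That test therefore does not tell how they perform where replicates differ by such a shift, as they do here. Python 3.11.15 with numpy 2.4.6, pandas 2.3.3 and matplotlib 3.10.9 was used for the rest. Named rows were the 8 of highest mean TPM, called rows, the widest replicate gaps at DAP5 and DAP20, the 3 of smallest spread and rows of the study's stage lists; others are said to be chosen after their values were seen or are counted in groups. Members, lists and rules were chosen with earlier results of these data known. The rows detected in 1 library, those higher at DAP20 and the 6 of widest relative spread were named after their values were seen. Alternatives changed the pseudocount, the filter, the scaling, the block and the libraries.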

Additional observations from a re-analysis of the deposited data

How the results depend on the processing

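Under every alternative run with 2 libraries per stage but 1 crossed block, 0 ENSRNA rows were called at an adjusted p under 0.01. The threshold of 0.05 was run with the main fit only, where it called 0 ENSRNA rows in the 3 comparisons. Under other scalings ENSRNA rows passed 0.05, ENSRNA050013876 among them. Its limma adjusted p for DAP20 against DAP9 was 0.0208 with factors from the ENSRNA rows, 0.0309 after quantile normalization and 0.0426 with median-of-ratios factors. The lowest adjusted p of an ENSRNA row was 0.0130, 0.0271 and 0.0316 in turn, and for DAP20 against DAP5 0.0123, 0.0151 and 0.0240. ENSRNA050013876 had log2 fold changes of 2.80, 2.395 and 2.65 and was picked for its spread relative to the other ENSRNA rows. Scaling that rests on those rows measures nearly the same quantity, so the values are not separate support for it. Over all identifiers tested for DAP20 against DAP5, 11 of 91 were called at 0.05 in the main fit, 10 lower and 1 higher. At 0.01 the direction changed with the setting. Median-of-ratios size factors called 5 of 91, all higher, and a TPM filter of 5 called 5 of 48, all lower. Quantile normalization called 2 of 91, all higher, and the fit with no filter called 2 of 189, all lower. None of these identifiers was an ENSRNA row. Over the 91 identifiers, which share their libraries, the correlation of same-numbered deviations was -0.23, -0.54 and -0.06. This describes the values and cannot tell whether libraries were paired, and no label states a pairing. With the replicate block 0 rows were called. The crossed replicate block, chosen after seeing the data, paired DAP5 replicate 1 with DAP20 replicate 2, the higher library of each stage. It called 14 ENSRNA rows, all lower at DAP20, and 21 of all 91 identifiers. The block was taken from the values then tested, so these calls are not evidence of a change. With 2 libraries per stage and no crossed block, the lowest limma adjusted p of an ENSRNA row was 0.201 for DAP9 against DAP5. It was 0.0130 for DAP20 against DAP9 and 0.01065 for DAP20 against DAP5, the latter with no filter. Leaving out 1 library gave summed TPM of 288.6 to 1347 at DAP5, 248.4 to 274.8 at DAP9 and 64.33 to 320.7 at DAP20, and median log2 fold changes of -1.75 to -0.14 (DAP9 against DAP5), -1.19 to 0.17 (DAP20 against DAP9) and -2.37 to -0.66 (DAP20 against DAP5). The median DAP20 against DAP9 reversed to 0.17 without DAP20 replicate 1. Size factors from the ENSRNA rows, chosen after seeing the data, set the rows' own median near 0 by construction (0.012 for DAP20 against DAP9 and -0.04 for DAP20 against DAP5), and median-of-ratios factors, in which these rows are 54 of 92, do so in part. Quantile normalization gave -0.04 for DAP9 against DAP5. ENSRNA050013838 reversed in DAP20 against DAP9 to 0.18 with median-of-ratios size factors, 0.17 with those of TraesCS rows outside the run, 0.62 without DAP20 replicate 1 (range over left-out libraries -1.60 to 0.62) and 0.44 with those of the ENSRNA rows, and in DAP20 against DAP5 to 0.058 and 0.27 with the first and last of these. The median replicate log2 ratio at DAP9 became -0.040 with size factors from TraesCS rows outside the run, and that at DAP20 became -0.59 over all rows on the log2(TPM + 1) scale, which includes the rows at 0. The DAP9 sum was 222.5 TPM without the most abundant row. The cause of the other reversals was not tested.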

Other observations

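The 17 TraesCS rows standing among the ENSRNA rows are listed at DAP15 too. Their summed TPM was 105.4 and 12.4 in the 2 replicates of DAP5, 12.7 and 11.9 in those of DAP9, 8.74 and 11.5 in those of DAP15 and 19.0 and 72.5 in those of DAP20. Of these genes 8 were highest in DAP5 replicate 1 and 9 in DAP20 replicate 2. TraesCS1A02G000800 had 0.348 and 0 TPM at DAP5, 0 in both DAP9 libraries, 0.633 and 1.03 at DAP15 and 1.26 and 6.98 at DAP20. TraesCS1A02G001700 had 4.88 and 0.231 TPM at DAP5, then 0.284 and 0.577 at DAP9, later 1.43 and 1.39 at DAP15, and 7.94 and 16.5 at DAP20. These 2 genes were named after their values were seen.

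Some low rows shared 1 value within a library. In DAP20 replicate 1, ENSRNA050013904, ENSRNA050013920 and ENSRNA050013929 were all at 0.122 TPM, and ENSRNA050013939 and ENSRNA050013940 both at 0.142 TPM. In DAP20 replicate 2 the value of ENSRNA050013920 was 2 times that of ENSRNA050013904. What 1 read is worth in these rows was not tested.

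A further ENSRNA row, ENSRNA050009944, stood after the run and was at 0 in all 6 libraries.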
